A study of Homo sapiens with 6 samples.

Results

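The genes encoding the proteins of the mitochondrial ribosome were compared between 2 stable derivatives of H358, a human cell line from a bronchioloalveolar lung carcinoma. Members were the probe sets with exactly 1 annotated symbol of the form MRPL or MRPS followed by a number, with A, B or C allowed after an MRPS number. Where a gene had several probe sets, the one kept was chosen by its mean level over all 6 arrays, the highest being used. This gave 73 of the 18417 genes in the table, 48 with an MRPL symbol and 25 with an MRPS symbol. A further 4 probe sets whose annotation joins such a symbol to another gene's were left out. The level over all arrays chose the probe set, and the comparison between the lines was not part of the rule, although the set was proposed with earlier results of these arrays known.

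The cells stably expressed TwistER (3 arrays) or GFP, green fluorescent protein (3 arrays), and both lines received 4-hydroxytamoxifen at 100 nM for 12 days. TwistER constructs join Twist, a transcription factor, to a hormone-binding domain of the estrogen receptor, and the drug switches the fusion on. The sample titles call the TwistER cultures those after, and the GFP cultures those before, epithelial-mesenchymal transition. TwistER cells without the drug were not among the arrays, and activation of the factor and any other feature that sets the lines apart cannot be told apart. The labels do not say whether a line is 1 clone. Values are log2 expression from RMA, and every difference is TwistER minus GFP with its SE from limma.

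Mitochondria carry their own ribosome, which translates the few proteins encoded by mitochondrial DNA, all of them membrane parts of the respiratory chain and ATP synthase. Its RNAs come from mitochondrial DNA, but all of its proteins are encoded in the nucleus, made in the cytosol and imported. The small subunit reads the messenger RNA and the large subunit joins amino acids. Some of the proteins have a counterpart in bacterial ribosomes and others are found in mitochondria only. By that general knowledge, 44 of the measured members have a bacterial counterpart and 29 do not. The proteins of MRPS18A and MRPS30 sit in the large subunit despite their symbols.

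GFP replicate 1 was unlike its fellow replicates. Over the 73 members it correlated with GFP replicates 2 and 3 at r = 0.958 and 0.953, while those correlated with each other at r = 0.996. Most counts and many of the named differences are therefore also given without it. EPCAM, a marker of epithelial cells, averaged 8.77 in TwistER and 12.06 in GFP, and 5 of 6 epithelial markers fell, with limma's adjusted p under 0.05 (all 6 without GFP replicate 1). Of 3 leukocyte markers 0 passed that test (0 also at an unadjusted p under 0.05), and their summed log2 levels were 10.7 to 11.01 in TwistER and 9.85 to 10.3 in GFP. Without GFP replicate 1, PTPRC, the leukocyte antigen CD45, rose (0.48 ± 0.12, limma adjusted p = 0.0407). All 3 leukocyte markers were dim, with mean levels below the median of all genes and 2 of them below the 25th percentile. Of 6 fibroblast markers 1 rose, COL1A1 (0.54 ± 0.13, limma adjusted p = 0.0323), and 1 fell, LUM (-1.63 ± 0.18, limma adjusted p = 0.000889). The sums were 27.8 to 28.4 in TwistER and 29.0 to 29.5 in GFP, a gap that comes from LUM. Of these 6 markers 4 lay below the median level of all genes. Of 3 endothelial markers PECAM1 was the 1 that rose (0.61 ± 0.12, limma adjusted p = 0.0153, and 0.00839 without GFP replicate 1), and the sums were 12.6 to 12.8 in TwistER and 11.9 to 12.4 in GFP. These 3 were dim too, all below the median level of all genes and 1 below the 25th percentile. The part of these markers in the results was not tested.

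Transcripts of the mitochondrial ribosomal proteins were lower in TwistER by a modest amount, and in most members. Of the 73 members, 9 fell and 0 rose in limma at a Benjamini-Hochberg adjusted p under 0.05 over all genes, beside 4.11% of all genes that fell and 4.72% that rose (8.83% in either direction). At an unadjusted p under 0.05, 24 were lower and 0 higher, beside 11.1% and 10.4% of all genes. The members were bright, with a median level of 7.66 beside 5.46 for all genes. In a fit of only the genes with a mean above the 50th percentile, 11 of 70 members fell and 0 rose. There 8.74% of genes fell, so the excess of the members was smaller among genes of such levels. At least 1.5-fold lower over all arrays, tested or not, were 5 members (MRPS17, MRPS12, MRPL1, MRPL15 and MRPL33), 6.85% of them beside 3.86% of all genes. Of these, MRPL1, MRPL15 and MRPL33 fell short of 1.5-fold without GFP replicate 1, with log2 differences of -0.47, -0.42 and -0.26. MRPS17 and MRPS12 stayed past 1.5-fold there (-0.65 and -0.84), and MRPS23 came past it (-0.65). The median difference of the members was -0.24, a 1.18-fold fall, beside 0.01 for all genes, and 65 of 73 members were below 0 (48.9% of all genes were). The median level of the members was 7.57, 7.43 and 7.56 in the TwistER arrays, and 7.78, 7.75 and 7.85 in the GFP arrays. In bulk RNA, less transcript per cell and fewer cells with the transcript cannot be told apart.

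The count depended on the arrays used. Without GFP replicate 1, 25 members fell and 0 rose, beside 8.09% of all genes that fell and 6.97% that rose there, and the 25 held all 9 of the others (4.08% of all genes fell in both fits). There 0 members were higher at an unadjusted p under 0.05, beside 12.7% of all genes, and 69 had a difference below 0, beside 50.3%. Without GFP replicate 2 or 3, 3 and 5 members fell, beside 2.4% and 3% of all genes. Without TwistER replicate 1 or 3, 2 and 3 members fell, beside 2.12% and 2.1% of all genes. Without TwistER replicate 2, 0 members fell in limma, beside 1.94% of all genes, with 14 lower and 1 higher at an unadjusted p under 0.05. Each of these fits has 5 arrays. The median difference of the members ran from -0.22 to -0.26 over the same fits.

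Every TwistER array lay below every GFP array in 31 members, 42.5% of them, beside 14.5% of all genes. The reverse held for 0 members and 13.9% of all genes. Against GFP replicates 2 and 3 alone, all TwistER arrays were lower in 50 members (68.5%, beside 23.6% of all genes) and higher in 1, MRPS22 (1.37%, beside 20.3%).

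**Figure D1:**
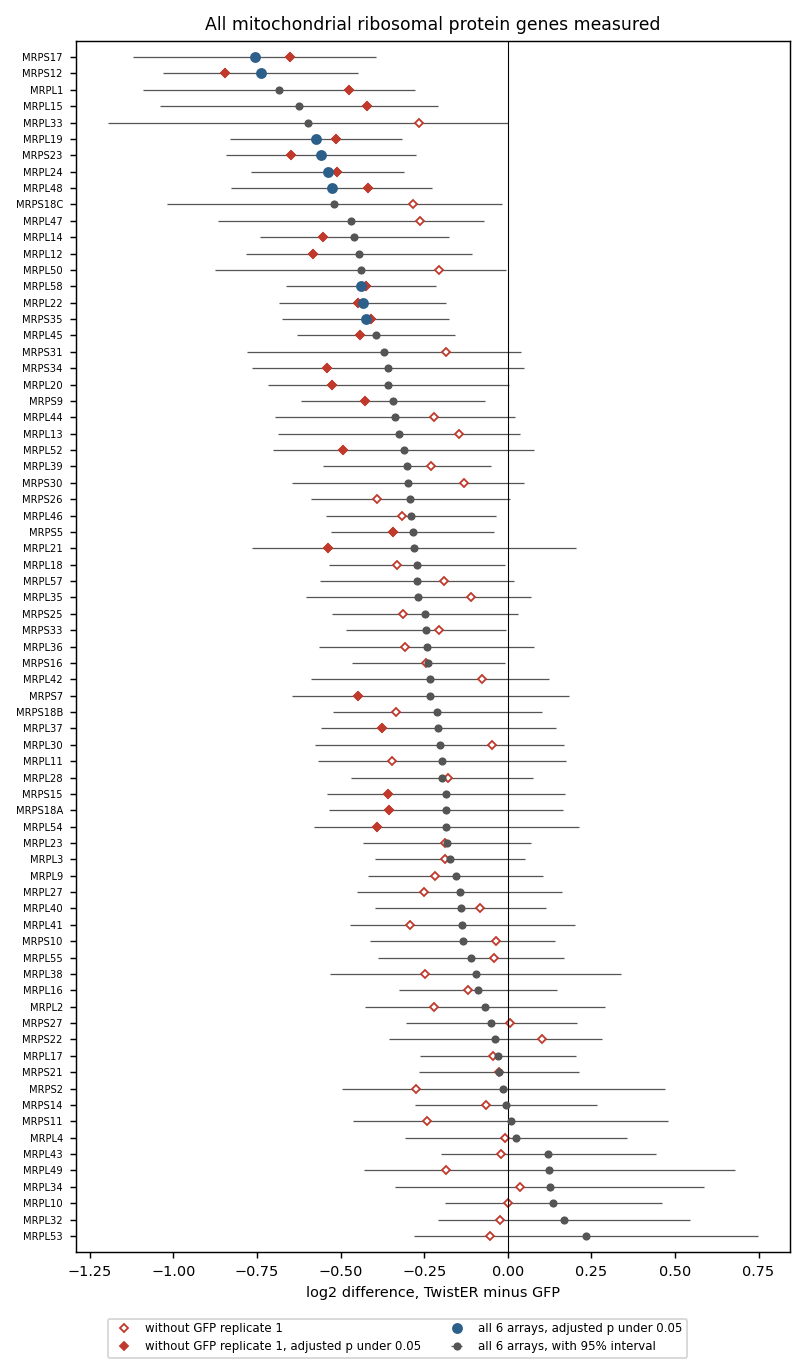
Log2 difference (TwistER minus GFP) of each of the 73 members, ordered by the difference over all 6 arrays. Dots with bars are limma differences with 95% intervals, diamonds are the differences without GFP replicate 1, and filled colours mark an adjusted p under 0.05. The points run from -0.76 for MRPS17 to 0.23 for MRPL53, and 65 of 73 dots lie left of 0.

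Of the small-subunit genes, MRPS12 and MRPS17 had the largest falls. MRPS12, the counterpart of a bacterial protein at the decoding site, read 4.64, 4.53 and 4.65 in TwistER, against 5.13, 5.38 and 5.53 in GFP. It fell 1.67-fold (-0.74 ± 0.13, limma adjusted p = 0.00828), and the arrays of the lines did not overlap. Without GFP replicate 1, its lowest GFP array, the difference was -0.84 ± 0.10 (limma adjusted p = 0.00166). Among the fits that each left out 1 array, the call was lost only without TwistER replicate 2 (limma adjusted p = 0.0509).

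MRPS17, whose bacterial counterpart binds ribosomal RNA early in assembly, read 6.46, 6.08 and 6.57 in TwistER, against 7.34, 7.01 and 7.03 in GFP. It fell 1.69-fold (-0.76 ± 0.16, limma adjusted p = 0.0212), and all TwistER arrays were below all GFP arrays. The difference was -0.65 ± 0.15 without GFP replicate 1, its highest GFP array (limma adjusted p = 0.0289). Leaving out TwistER replicate 1 or 2 ended the call (highest limma adjusted p = 0.0796).

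The promoters of MRPS12, MRPS17 and MRPL24, the members that fell and kept that call in the most of these fits, are shown to let their composition be compared. Each runs from 250 bases before to 50 after the gene's start in RefSeq's GRCh38.p14, 5′ to 3′ on the gene's strand. Capitals mark matches on either strand to 4 motifs known from promoters of mitochondrial or growth genes: NRF1 (GCGCA, any 1 base, then GCGC), the ETS core (CCGGAAG), YY1 (AAGATGG) and the E-box (CACGTG). The MRPS12 window lies at chr19:38930694-38930993, plus strand, the MRPS17 window at chr7:55951627-55951926, plus strand, and the MRPL24 window at chr1:156741039-156741338, minus strand.
MRPS12: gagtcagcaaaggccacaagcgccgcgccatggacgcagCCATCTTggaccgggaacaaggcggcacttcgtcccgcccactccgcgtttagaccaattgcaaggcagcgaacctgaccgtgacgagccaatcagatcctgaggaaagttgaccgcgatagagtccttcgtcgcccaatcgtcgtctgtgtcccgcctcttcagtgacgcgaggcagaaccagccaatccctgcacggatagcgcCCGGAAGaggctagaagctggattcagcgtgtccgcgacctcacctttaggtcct
MRPS17: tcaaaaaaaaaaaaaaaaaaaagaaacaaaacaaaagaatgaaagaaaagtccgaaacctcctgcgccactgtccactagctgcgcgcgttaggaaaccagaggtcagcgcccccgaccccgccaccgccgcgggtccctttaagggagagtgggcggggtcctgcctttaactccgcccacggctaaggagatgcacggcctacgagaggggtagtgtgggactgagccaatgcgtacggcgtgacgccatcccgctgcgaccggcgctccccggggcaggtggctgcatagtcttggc
MRPL24: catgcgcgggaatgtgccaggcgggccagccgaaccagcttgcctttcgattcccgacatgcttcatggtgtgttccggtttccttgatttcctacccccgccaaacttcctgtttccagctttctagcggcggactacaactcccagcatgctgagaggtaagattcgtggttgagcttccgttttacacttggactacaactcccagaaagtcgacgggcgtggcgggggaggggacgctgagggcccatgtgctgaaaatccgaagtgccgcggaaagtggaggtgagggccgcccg
MRPS12 holds 1 match to the ETS core and 1 to YY1, and the other two windows hold 0 of the 4 motifs.

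A promoter window was found for 66 of the 73 members, and for 14237 of all genes in the table. The ETS core, bound by factors that include the mitochondrial gene regulator GABP, was in 28 of the 66 (42.4%, beside 14.6% of all windows). YY1, named for the zinc-finger factor, was in 21 (31.8%, beside 6.51%). NRF1, the motif of nuclear respiratory factor, was in 8 (12.1%, beside 8.91%), and the E-box, bound by MYC and others, in 6 (9.09%, beside 8.88%). No match overlapped a match of another motif in the members' windows (0 overlaps). Among the members with a window, the ETS core was in 9 of the 23 that fell without GFP replicate 1 and in 19 of the other 43, and YY1 in 7 and in 14. These shares describe letters in a window and were not tested.

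The other small-subunit members that fell were MRPS23 and MRPS35, both without a bacterial counterpart. MRPS23 read 9.02, 8.85 and 8.82 in TwistER, against 9.27, 9.57 and 9.52 in GFP (1.47-fold lower, -0.56 ± 0.12, limma adjusted p = 0.0269). MRPS35 averaged 8.59 ± 0.09 in TwistER and 9.02 ± 0.09 in GFP (SD, n = 3 each), a difference of -0.42 ± 0.11 (limma adjusted p = 0.0485). Both genes had lines that did not overlap. Each call was lost when any array other than GFP replicate 1 was left out, with highest limma adjusted p of 0.118 for MRPS23 and 0.195 for MRPS35. With the replicate number as a block they did not pass either (0.0559 and 0.0846). MRPS35 also lost its call under a further quantile normalization, with each array centred on its median and under cyclic loess. In all, 4 of the 25 MRPS genes fell (median -0.24), and 10 fell without GFP replicate 1 (median -0.31).

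The 3 paralogues related to the bacterial protein S18 had differences from -0.52 to -0.18 in these arrays. MRPS18C read 7.43, 7.12 and 6.87 in TwistER, against 8.13, 7.46 and 7.39 in GFP (-0.52 ± 0.22, limma adjusted p = 0.214). MRPS18A read 7.01, 7.09 and 7.03 in TwistER, against 6.88, 7.39 and 7.40 in GFP (-0.18 ± 0.15, limma adjusted p = 0.575). MRPS18B had -0.21 ± 0.14 (limma adjusted p = 0.446). In all 3 the groups overlapped, and GFP replicate 1 was the highest GFP array for MRPS18C and the lowest for MRPS18A and MRPS18B. Without that array MRPS18A had -0.35 ± 0.09 and passed (limma adjusted p = 0.0353), while MRPS18C had -0.28 ± 0.16 and MRPS18B -0.33 ± 0.10 and did not (0.311 and 0.0739).

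Further small-subunit members did not pass over all arrays. MRPS22, in which mutations cause an inherited deficiency of oxidative phosphorylation, averaged 7.46 ± 0.06 in TwistER and 7.49 ± 0.24 in GFP (SD, n = 3 each), a difference of -0.04 with a 95% interval of -0.36 to 0.28. Without GFP replicate 1 it was 0.10 ± 0.09 (limma adjusted p = 0.534), under cyclic loess it was 0.01 and with array weights 0.07, so that its sign is not settled. MRPS16, also a gene of inherited mitochondrial disease, read 7.08, 7.04 and 7.14 in TwistER, against 7.31, 7.37 and 7.29 in GFP. The lines did not overlap, but the difference of -0.24 ± 0.10 did not pass (limma adjusted p = 0.214). MRPS34, a small-subunit protein without a bacterial counterpart, had -0.36 ± 0.18 and did not pass over all arrays, but fell by 0.54 ± 0.13 on the log2 scale without GFP replicate 1 (limma adjusted p = 0.0315).

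**Figure D2:**
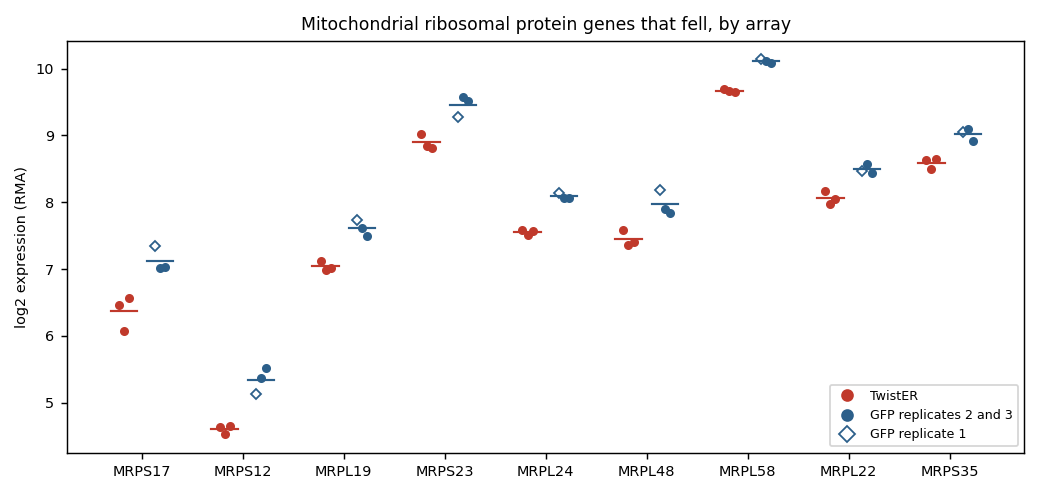
Log2 expression (RMA) by array of the 9 members that fell, TwistER at left and GFP at right of each gene, with lines at the group means and GFP replicate 1 as an open diamond. In all 9 genes the 3 TwistER arrays lie below the 3 GFP arrays.

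Of the large-subunit genes, MRPL19, MRPL24, MRPL48, MRPL58 and MRPL22 fell. MRPL24, whose bacterial counterpart starts the folding of the large-subunit RNA, read 7.58, 7.51 and 7.56 in TwistER, against 8.14, 8.06 and 8.06 in GFP (1.45-fold lower, -0.54 ± 0.10, limma adjusted p = 0.0117). MRPL19, the counterpart of a bacterial protein at the subunit interface, read 7.13, 6.98 and 7.02 in TwistER, against 7.74, 7.62 and 7.50 in GFP (1.49-fold lower, -0.57 ± 0.11, limma adjusted p = 0.0150). For both genes the arrays of a line lay close together and the lines did not overlap. The MRPL24 call was lost without TwistER replicate 1 or 2 (highest limma adjusted p = 0.0682), and that of MRPL19 without GFP replicate 2 or TwistER replicate 2 or 3 (0.0810).

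MRPL58, a peptidyl-tRNA hydrolase that is built into the large subunit, read 9.70, 9.67 and 9.65 in TwistER, against 10.14, 10.11 and 10.08 in GFP (1.35-fold lower, -0.44 ± 0.10, limma adjusted p = 0.0281). MRPL22, whose bacterial counterpart lines the exit tunnel of the new protein, had -0.43 ± 0.11 (limma adjusted p = 0.0434), and MRPL48, found in mitochondria only, -0.53 ± 0.13 (limma adjusted p = 0.0433). Their lines did not overlap either. These 3 calls were lost when any array other than GFP replicate 1 was left out, with highest limma adjusted p of 0.117, 0.180 and 0.173 for MRPL58, MRPL22 and MRPL48. With the replicate number as a block, MRPL58 and MRPL22 did not pass (0.0580 and 0.0771). MRPL22 and MRPL48 also lost their calls under a further quantile normalization and under cyclic loess. MRPL48 lost it with each array centred on its median too (highest limma adjusted p over these = 0.0638). Its difference was -0.42 ± 0.10 without GFP replicate 1, its highest GFP array (limma adjusted p = 0.0360). In all, 5 of the 48 MRPL genes fell (median -0.24), and 15 without GFP replicate 1 (median -0.24).

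Proteins of the flexible stalks, which handle translation factors and the leaving transfer RNA, were among the members near or away from the threshold. MRPL12, the counterpart of the bacterial stalk protein and a reported partner of the mitochondrial RNA polymerase, read 6.85, 6.95 and 6.65 in TwistER, against 6.99, 7.39 and 7.41 in GFP (-0.45 ± 0.15, limma adjusted p = 0.112). The lines did not overlap, and without GFP replicate 1, the lowest GFP array, MRPL12 fell (-0.58 ± 0.11, limma adjusted p = 0.0145). MRPL1, of the stalk at the exit site, read 8.76, 8.74 and 8.60 in TwistER, against 9.80, 9.16 and 9.19 in GFP (-0.68 ± 0.18, limma adjusted p = 0.0502). Here GFP replicate 1 was the highest array, and without it the difference was smaller but passed (-0.47 ± 0.10, limma adjusted p = 0.0167).

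MRPL11 and MRPL10, at the base of the factor-binding stalk, did not pass in either fit. MRPL11 read 7.68, 7.57 and 7.87 in TwistER, against 7.60, 8.18 and 7.92 in GFP (-0.20 ± 0.16, limma adjusted p = 0.572), and the lines overlapped. MRPL10 had 0.14 with a 95% interval of -0.19 to 0.46, and 0.00 without GFP replicate 1.

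The remaining members that passed without GFP replicate 1 but not over all arrays were MRPL15, MRPL14, MRPL45, MRPL20, MRPS9, MRPL52, MRPS5 and MRPL21, and, chosen for naming after their values were seen, MRPS7, MRPL37, MRPS15 and MRPL54. Their differences there ran from -0.34 for MRPS5 to -0.55 for MRPL14. MRPL45, which helps hold the ribosome at the inner membrane, read 9.33, 9.37 and 9.36 in TwistER, against 9.66, 9.82 and 9.78 in GFP (-0.39 ± 0.10, limma adjusted p = 0.0508), and -0.44 without GFP replicate 1 (limma adjusted p = 0.0146). MRPL21 read 9.71, 9.49 and 9.81 in TwistER, against 9.43, 10.22 and 10.18 in GFP, so that GFP replicate 1 was the lowest of all 6 arrays. Its difference was -0.28 ± 0.21 over all arrays and -0.54 ± 0.12 without GFP replicate 1.

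At the other end, MRPL53, MRPL32 and MRPL10 had the largest positive differences over all arrays, and 0 of them passed. MRPL53 read 7.25, 7.41 and 7.41 in TwistER, against 6.55, 7.37 and 7.46 in GFP (0.23 ± 0.22, limma adjusted p = 0.635), a difference of -0.05 without GFP replicate 1 and -0.01 with array weights. MRPL32, which the protease AFG3L2 matures before it joins the ribosome, read 8.17, 8.12 and 8.12 in TwistER, against 7.59, 8.19 and 8.13 in GFP. Its difference was 0.17 ± 0.16 (limma adjusted p = 0.641), and -0.02 without GFP replicate 1. In both genes the TwistER arrays overlapped with GFP replicates 2 and 3, and GFP replicate 1 was the low array.

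GFP replicate 1 differed from the other GFP arrays in both directions within this gene family. It was above both of them in 26 members, below both in 38 and between them in 9. The gap to their mean ran from -0.93 in MRPL49 to 0.999 in MRPL33, members named here for these gaps. It exceeded 0.3 above in 16 members and 0.3 below in 24, and the share of all genes past these gaps was not counted. The quartiles of the gap were -0.43 and 0.21 over the members, beside -0.24 and 0.22 over all genes. The interquartile range of the gap was 0.64 over the members and 0.45 over all genes. MRPL33 read 8.05, 7.68 and 7.74 in TwistER, against 9.09, 8.14 and 8.04 in GFP (-0.60 ± 0.26, limma adjusted p = 0.233), and -0.26 ± 0.13 without GFP replicate 1 (0.245). MRPL49 read 5.43, 5.60 and 5.32 in TwistER, against 4.71, 5.55 and 5.72 in GFP (0.12 ± 0.24, limma adjusted p = 0.838), and -0.19 ± 0.12 without GFP replicate 1 (0.363). What set this array apart was not tested.

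**Figure D3:**
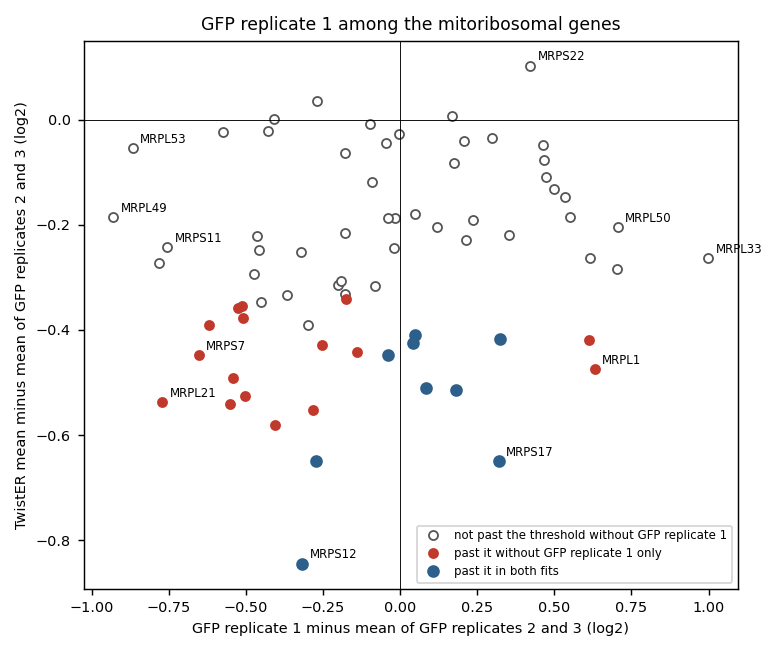
For each of the 73 members, GFP replicate 1 minus the mean of GFP replicates 2 and 3 (horizontal, log2) against the TwistER mean minus that same GFP mean (vertical, log2); both axes share that mean. Members sit on both sides of the vertical line, 69 of 73 lie below the horizontal line, and colours mark an adjusted p under 0.05 in limma without GFP replicate 1 only (16 members) or in both fits (9 members).

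The members were also counted by class. Of the 44 with a bacterial counterpart, 5 fell (median -0.22), and 16 without GFP replicate 1 (median -0.27). Of the 29 without one, 4 fell (median -0.27), and 9 without GFP replicate 1 (median -0.23). By place in the assembled ribosome, 5 of 50 large-subunit and 4 of 23 small-subunit members fell, or 16 and 9 without GFP replicate 1. Of all genes, 4.11% fell over all arrays and 8.09% without GFP replicate 1. The difference between these classes was not tested. The members lie on 21 chromosomes, and the 9 that fell on 8 of them.

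Of the 66 members with a promoter window, 20 (30.3%, beside 19.0% of all genes) had a RefSeq gene starting within 1000 bases upstream on the opposite strand. Of 16 such neighbours that were measured, 0 passed limma's test over all arrays, and SARS2 was the 1 that fell without GFP replicate 1. Of all genes, 8.83% passed over all arrays in either direction, and 8.09% fell without GFP replicate 1. For so few neighbours the counts are near these shares. SARS2, the mitochondrial seryl-tRNA synthetase, starts 181 bases from MRPS12. It read 5.15, 5.04 and 4.99 in TwistER, against 4.78, 5.48 and 5.46 in GFP (-0.18 ± 0.19, limma adjusted p = 0.674), and -0.41 ± 0.09 without GFP replicate 1 (0.0275). The neighbours had a median difference of -0.11, beside -0.21 for their members and 0.01 for all genes. MRPL46 and MRPS11 are neighbours of each other and count on both sides.

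For 3 members the table held several probe sets. The 2 of MRPL20 and the 3 of MRPS18B carry the same 6 values, so they are not separate measurements. The 2 of MRPL36 differ, at -0.24 ± 0.14 for the brighter one, which was used, and -0.09 ± 0.16 for the other. The means of the kept probe sets ran from 4.98 for MRPS12 to 10.4 for MRPL3, all above the lower quartile of the table. MRPS12, the dimmest member, lay below the median of 5.46 for all genes. These levels are of different probes and give no order of transcript abundance. MRPL3, a core protein of the large subunit, had -0.17 ± 0.10 (limma adjusted p = 0.374).

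Some other genes of mitochondrial translation also fell. GFM1, the elongation factor that moves the ribosome along the messenger, read 7.80, 7.72 and 7.81 in TwistER, against 8.44, 8.51 and 8.38 in GFP. It fell 1.59-fold (-0.67 ± 0.10, limma adjusted p = 0.00451) and kept the call in all 6 fits that left out 1 array. With MTIF3, an initiation factor (-0.45 ± 0.11, limma adjusted p = 0.0428), 3 of 17 translation factors fell and 0 rose (7 and 0 at an unadjusted p under 0.05, median -0.18). Of 29 assembly factors 2 fell and 0 rose (8 and 0 unadjusted, median -0.07). These were GTPBP10, a GTPase of large-subunit assembly (-0.57 ± 0.14, limma adjusted p = 0.0353), and C1QBP, a matrix protein (-0.47 ± 0.11, limma adjusted p = 0.0273). Of 19 mitochondrial aminoacyl-tRNA synthetases IARS2 was the 1 that fell (-0.39 ± 0.10, limma adjusted p = 0.0464), and 0 rose (3 lower and 1 higher unadjusted, median -0.05). Of all genes, 4.11% fell and 4.72% rose by the adjusted p, and 11.1% were lower and 10.4% higher at an unadjusted p under 0.05. The falls over all arrays were 17.6% of the translation factors. They were 6.9% of the assembly factors and 5.26% of the synthetases, close to the share of all genes. Without GFP replicate 1, 5 translation factors, 6 assembly factors and 3 synthetases fell and 0 rose, beside 8.09% of all genes that fell. MTIF3, GTPBP10, C1QBP and IARS2 each lost the call when any array other than GFP replicate 1 was left out, with highest limma adjusted p of 0.156, 0.138, 0.118 and 0.152. Of the 4 measured ribosomal proteins whose symbols do not follow the pattern, DAP3, a small-subunit GTPase, fell without GFP replicate 1 (-0.49, limma adjusted p = 0.0156), and over all arrays 0 passed in limma (0 also unadjusted).

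PPARGC1A, a coactivator known to raise the expression of mitochondrial genes, moved the other way. It read 5.77, 5.73 and 5.93 in TwistER, against 5.09, 5.16 and 5.19 in GFP, and rose 1.58-fold (0.66 ± 0.11, limma adjusted p = 0.00607), in all 6 fits that left out 1 array. It was the 1 riser among 24 genes of mitochondrial transcription, RNA processing and biogenesis, of which PNPT1, an RNA-processing nuclease, was the 1 that fell (-0.61 ± 0.14, limma adjusted p = 0.0294). That list had a median of -0.06, with 5 lower and 1 higher at an unadjusted p under 0.05, and 3 fell and 1 rose without GFP replicate 1. Over the whole table, 4.11% of genes fell and 4.72% rose, so that 1 of 24 (4.17%) is close to these shares. By the unadjusted p 11.1% were lower and 10.4% higher, and without GFP replicate 1 8.09% fell and 6.97% rose. PNPT1 lost its call without GFP replicate 2 or any TwistER array (highest limma adjusted p = 0.122).

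The respiratory chain, some of whose core subunits this ribosome makes, was measured through its nuclear-encoded subunits. Of 33 complex I subunits 5 fell and 0 rose (12 and 0 at an unadjusted p under 0.05, median -0.23). NDUFB9, an accessory subunit, fell 1.66-fold (-0.73 ± 0.12, limma adjusted p = 0.00598) and kept the call in all 6 fits that left out 1 array. NDUFC1, another accessory subunit, had -0.82 ± 0.20 (limma adjusted p = 0.0434), and -0.56 without GFP replicate 1. Of 35 subunits of complexes II to V 2 fell and 0 rose (10 and 0 unadjusted, median -0.19), the cytochrome oxidase subunits COX5A (-0.43 ± 0.10, limma adjusted p = 0.0316) and COX8A (-0.40 ± 0.10, limma adjusted p = 0.0489). Of 25 protein import genes, 2 fell and 0 rose (10 and 0 unadjusted, median -0.23), GRPEL1, a cochaperone of import (-0.53 ± 0.11, limma adjusted p = 0.0167), and TIMM13 (-0.48 ± 0.12, limma adjusted p = 0.0433). Without GFP replicate 1, 8 complex I, 10 complex II to V and 8 import genes fell and 0 rose. Of all genes, 4.11% fell over all arrays, 11.1% were lower by the unadjusted p, and 8.09% fell without GFP replicate 1. The 2 of 35 subunits of complexes II to V are 5.71%, close to the share of all genes. Over the fits that left out 1 array, the falls numbered 1 to 8, 0 to 10 and 0 to 8 in these lists, beside 1.94% to 8.09% of all genes. NDUFC1 lost its call in 4 of those 6 fits, and COX5A, COX8A, GRPEL1 and TIMM13 in all but the one without GFP replicate 1, with highest limma adjusted p of 0.159, 0.139, 0.197, 0.0856 and 0.159.

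The cytosolic ribosome makes the cell's other proteins. Of its 59 measured protein genes 0 fell and 0 rose in limma, both over all arrays and without GFP replicate 1 (1 lower and 0 higher at an unadjusted p under 0.05 over all arrays). Their median difference was 0.00, and -0.02 without GFP replicate 1. Many of these genes read near the top of the table, up to a mean of 12.8 for RPS25, while the median level of the mitoribosomal members was 7.66. The part of level in these differences was not tested. Across the whole table, 4.11% of genes fell and 4.72% rose over all arrays, and 8.09% and 6.97% without that array. At an unadjusted p under 0.05, 11.1% were lower and 10.4% higher over all arrays. Of 20 proliferation markers 1 fell, RRM2, a subunit of ribonucleotide reductase (-0.57 ± 0.11, limma adjusted p = 0.0141), and 0 rose (3 and 0 unadjusted). The 1 fall is 5% of these markers, close to the share of all genes. The median of the proliferation markers was -0.11, and without GFP replicate 1 it was -0.24 with 5 falls (25%, beside 8.09% of all genes). RRM2 lost its call without GFP replicate 2 or any TwistER array (highest limma adjusted p = 0.0702). The part of proliferation in the members' differences was not tested, nor was any difference between lists.

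**Figure D4:**
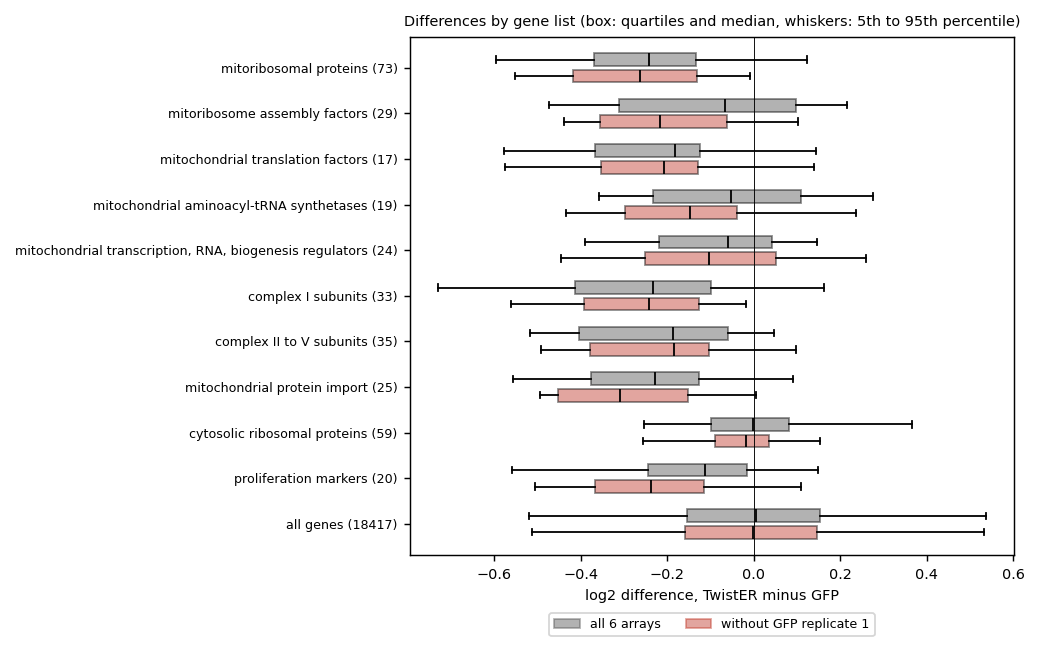
Log2 differences (TwistER minus GFP) of the mitochondrial ribosomal proteins, of related gene lists and of all genes, with the number of genes in brackets, over all 6 arrays and without GFP replicate 1. Boxes show quartiles and median, and whiskers the 5th to 95th percentile. The members' median lies at -0.24 with all arrays, that of the cytosolic ribosomal proteins at 0.00 and that of all genes at 0.01.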

How the data were processed

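Biotin-labelled RNA from 6 H358 cultures was read on Affymetrix human gene arrays, 1 array per sample, per the labels' protocols. The authors deposited RMA values, in log2 units per probe set, per the submitters' processing notes. RMA equalises the arrays, which hides any shift of the whole transcriptome, and understates differences of dim genes. For RMA the version and settings are not given. The labels call the samples biological replicates and name no batch, so the p-values reflect only the spread among these arrays, which may in part be technical. With 3 arrays a group, precision is limited by their number.

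All 6 columns of the table belong to a sample, and 0 were left over. Of 33297 probe sets, 19460 had 1 gene symbol in the platform annotation, 1754 had several and 12083 were unnamed there. The brightest probe set was kept per gene, which gave 18417 genes with no filter on level. The 2-sided test was limma 3.58.1 under R 4.3.3, by lmFit and eBayes without covariates, with Benjamini-Hochberg adjustment over all genes and a threshold of 0.05. "Rose" and "fell" are used of genes past it. Folds are powers of 2 of the log2 difference. Deviations of same-numbered arrays from their group means correlated at 0.139, 0.0154 and 0.157, so the numbers were not taken to pair the samples.

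The members, gene lists, promoter motifs and tests were chosen with earlier results of these data known. Related lists (10) came from general knowledge. Of their 303 entries 265 were used, 19 of them matched through RefSeq synonyms, among these RPL36A to RPL36AL. Entries that led to a member through a synonym (ICT1, MRP63 and RPS12) were left out of the lists, as were those without a probe set of 1 symbol. Named are up to 20 members past the threshold with or without GFP replicate 1, the 3 largest differences each way, MRPS18A to C, MRPL12, MRPS12, MRPL11, MRPS16 and MRPS22, the brightest and dimmest member, MRPL36 for its probe sets and up to 2 called genes of each list. Other genes (among them MRPL33, MRPL49, SARS2 and DAP3) were chosen after their values were seen. Promoters and neighbouring genes came from RefSeq (GRCh38.p14), read with Python 3.11.15 and pandas 2.3.3. Plots used matplotlib 3.10.9. Alternatives were other normalizations, filters on level, averaging over probe sets of a gene, other variance models, array weights, a replicate block, each array left out and other thresholds. The related lists under these alternatives were added after seeing the data.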

Additional observations from a re-analysis of the deposited data

How the results depend on the processing

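The number of genes past the threshold over the whole table was 1627. It was 3268 with array weights and 807 at an adjusted p under 0.01, and ran from 831 to 2773 when 1 array was left out (2773 without GFP replicate 1, 1063 without GFP replicate 2, 912 without TwistER replicate 1, 831 without TwistER replicate 2 and 935 without TwistER replicate 3). Members that fell numbered 9. They were 27 with array weights, which held all 9 of them, and 1 at an adjusted p under 0.01, and ran from 0 to 25 when 1 array was left out. With the other alternatives the number stayed between 6 (cyclic loess) and 13 (adjusted p under 0.10), and under no alternative run did a member rise (0 in each). The median difference of the members lay between -0.27 and -0.20 over all alternatives, moves smaller than the 0.0668 by which the member medians of arrays of a line vary (pooled SD). With the replicate number as a block, which the data do not show to pair the samples, 8 members fell and 1592 genes were called, but only 5 of those 8 are among the 9: MRPS23, MRPL58, MRPL22 and MRPS35 lost their calls (limma adjusted p = 0.0559, 0.0580, 0.0771 and 0.0846). MRPL22, MRPL48 and MRPS35 lost their calls under a further quantile normalization and under cyclic loess. MRPL48 and MRPS35 also lost them with each array centred on its median. Among the members recomputed under every alternative, the differences that changed sign were those of MRPS22 (0.0069 under cyclic loess, 0.068 with array weights, and -0.1134 to 0.1026 when 1 array was left out, positive without GFP replicate 1), MRPL53 (-0.0092 with array weights, and -0.0547 to 0.4 when 1 array was left out, negative without GFP replicate 1) and MRPL32 (-0.0229 to 0.2793 when 1 array was left out, negative without GFP replicate 1), and 0 of these passed the test in any of the fits concerned. Over all 73 members, 5 more changed sign without GFP replicate 1: MRPL49 (to -0.19), MRPS11 (to -0.24), MRPL43 (to -0.02), MRPL4 (to -0.0081) and MRPS27 (to 0.0070). The cause of these moves was not tested.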
